A study of Mus musculus with 14 samples.

Results

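The genes described here are 10 genes of BMP, activin and follistatin signalling, measured in the layer II/III cortex of mice at postnatal day 5. They are the BMP ligands Bmp2, Bmp6 and Bmp7, the activin and inhibin beta subunits Inhba and Inhbb, the TGF-beta ligand Tgfb2, the secreted antagonists Fst, Chrd and Nbl1, and the type I receptor Acvr1c. Each was found by its symbol in both count tables, which hold 25229 symbols in the progenitor experiment and 55353 in the postmitotic experiment. The 10 genes were chosen by the log2 fold changes of libraries labelled mutant over control in the 2 experiments, which were already known. Those differences, and how they compare between the experiments, are therefore given below as a description without a test.

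The series asks how loss of Lhx2, a LIM-homeodomain transcription factor, acts on the dendrites of layer II/III neurons when the gene is removed from progenitors or only after the last division. Polyadenylated RNA of microdissected layer II/III was sequenced in 14 libraries. In the progenitor experiment, Lhx2lox/lox cortices had received a Cre-EGFP plasmid (labelled mutant, n = 4) or an EGFP plasmid (control, n = 4) by in utero electroporation at E15.5. In the postmitotic experiment, the same EGFP plasmid had been electroporated into NexCre/+; Lhx2lox/lox cortices (labelled mutant, n = 3) or into Lhx2lox/lox cortices (control, n = 3). All 4 groups thus carried the floxed Lhx2 alleles and an EGFP plasmid. NexCre drives Cre from the Neurod6 locus in newly born excitatory neurons, so it reaches those of all layers, whereas the Cre plasmid reaches only electroporated cells and their daughters. The labels name a dissection and a trypsin dissociation but no sort of EGFP-positive cells, and nothing in them says that libraries came from separate animals. P-values therefore measure only the spread between these libraries, which may be partly technical.

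BMPs, activins and TGF-betas are secreted dimers that bring together type II and type I receptor kinases, which phosphorylate Smad proteins that then enter the nucleus and regulate genes such as those of the Id family. Secreted antagonists bind the ligands outside the cell and keep them from their receptors: follistatin chiefly holds activins, while chordin and the DAN-family protein encoded by Nbl1 hold BMPs. In the cortex, BMPs come in large part from the meninges and the dorsal midline, and activin A, a dimer of the Inhba product, is known as a transcript that neuronal activity induces in excitatory neurons.

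Between 22677019 and 29497595 reads per library were counted in genes in the progenitor experiment, and between 21605777 and 25891416 in the postmitotic one. Lhx2 itself was not lower in the libraries labelled mutant. Its CPM, the counts scaled to a library's TMM-normalised size, were 127, 114, 140 and 137 in progenitor libraries labelled mutant, against 131, 120, 139 and 120 in controls, and 171, 182 and 184 in postmitotic libraries labelled mutant, against 146, 150 and 143 in controls. The log2 fold change of Lhx2 was 0.02 ± 0.07 (SE) in the progenitor experiment, with an adjusted p of 0.847, and 0.29 ± 0.06 in the postmitotic experiment, with an adjusted p of 0.0276, by the quasi-likelihood test of edgeR, with p-values adjusted by the Benjamini-Hochberg method over all tested genes. The postmitotic call of Lhx2 ended in 5 of the 6 fits that left out 1 library (log2 fold change 0.27 to 0.32, adjusted p up to 0.184 in edgeR), and with the replicate number as a block or the fibroblast markers as a covariate. A gene-level count does not separate exons inside and outside the floxed stretch, so these values check the labels only in part, and "labelled mutant" is used throughout. Y-linked transcripts summed to 0 CPM in progenitor library 1 labelled mutant and to 99.4 to 170 CPM in libraries 2 to 4, against at most 0.0381 CPM in all 4 controls, so they moved with the label in that experiment. In the postmitotic experiment they were present in library 3 labelled mutant and in controls 1 and 2. Xist, an X-linked transcript of female cells, stood at 554 CPM in progenitor library 3 labelled mutant, against 8.02 and 0.130 CPM in libraries 2 and 4. Library 3 thus held Y-linked transcripts and Xist together. Whether it pooled animals was not tested.

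Markers of upper-layer excitatory neurons summed to 3637 to 3954 CPM in progenitor libraries labelled mutant and to 3729 to 4055 CPM in controls, so the labelled layer was present in both groups. Of the other marker lists, in the progenitor experiment, edgeR's test called 3 of 8 mural genes higher (Abcc9 and Kcnj8 among them), 4 of 9 astrocyte genes lower (Slc1a2 and S100b among them), 3 of 8 genes of the oligodendrocyte lineage higher and 3 of 5 subplate genes lower. It called 2 of 10 interneuron genes lower, 1 of 9 microglial genes lower and 1 of 7 radial glial and intermediate progenitor genes higher. Of 9 upper-layer genes, 4 were called higher and 1 lower (Slc17a7, log2 fold change -0.78). Such calls covered 23.4% of all tested genes in either direction. Astrocyte markers summed to 1445 to 1798 CPM in progenitor libraries labelled mutant, against 1818 to 2361 CPM in controls. Subplate markers summed to 18.1 to 38.3 CPM, against 39.8 to 79.0 CPM in controls. Neither pair of groups overlapped, while the sums of the other marker lists did in that experiment. Of the 16 activity-regulated genes, 2 were called higher and 3 lower, and their summed CPM were 154 to 252 in libraries labelled mutant, against 167 to 214 in controls. In the postmitotic experiment, 4 of 8 deep-layer genes were called higher (Ldb2 and Tbr1 among them), 1 of 9 upper-layer genes higher and 2 lower, and 1 of 15 activity-regulated genes lower, beside 1.96% of all tested genes in either direction. The part that cell composition plays in the results below was not tested, and in bulk samples fewer cells of a type and less RNA per cell cannot be told apart.

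All 10 genes passed the filter on low counts in both experiments. In the progenitor experiment the CPM of 4 of the 10 did not overlap between labelled mutant and control libraries, as for 27.0% of the 15295 tested genes. These were Inhba, Fst and Acvr1c, which were higher, and Nbl1, which was lower. Among postmitotic libraries Bmp2 and Chrd did not overlap, both being lower, as for 16.4% of the 17775 tested genes in either direction and 8.44% in that direction. No gene stood apart in both experiments. The 10 genes had a median log2 fold change of 0.05 in the progenitor and 0.11 in the postmitotic libraries, beside medians over all tested genes of 0.00401 and -0.00216. Because the genes were chosen with these values known, nothing is read from the shares.

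**Figure D1:**
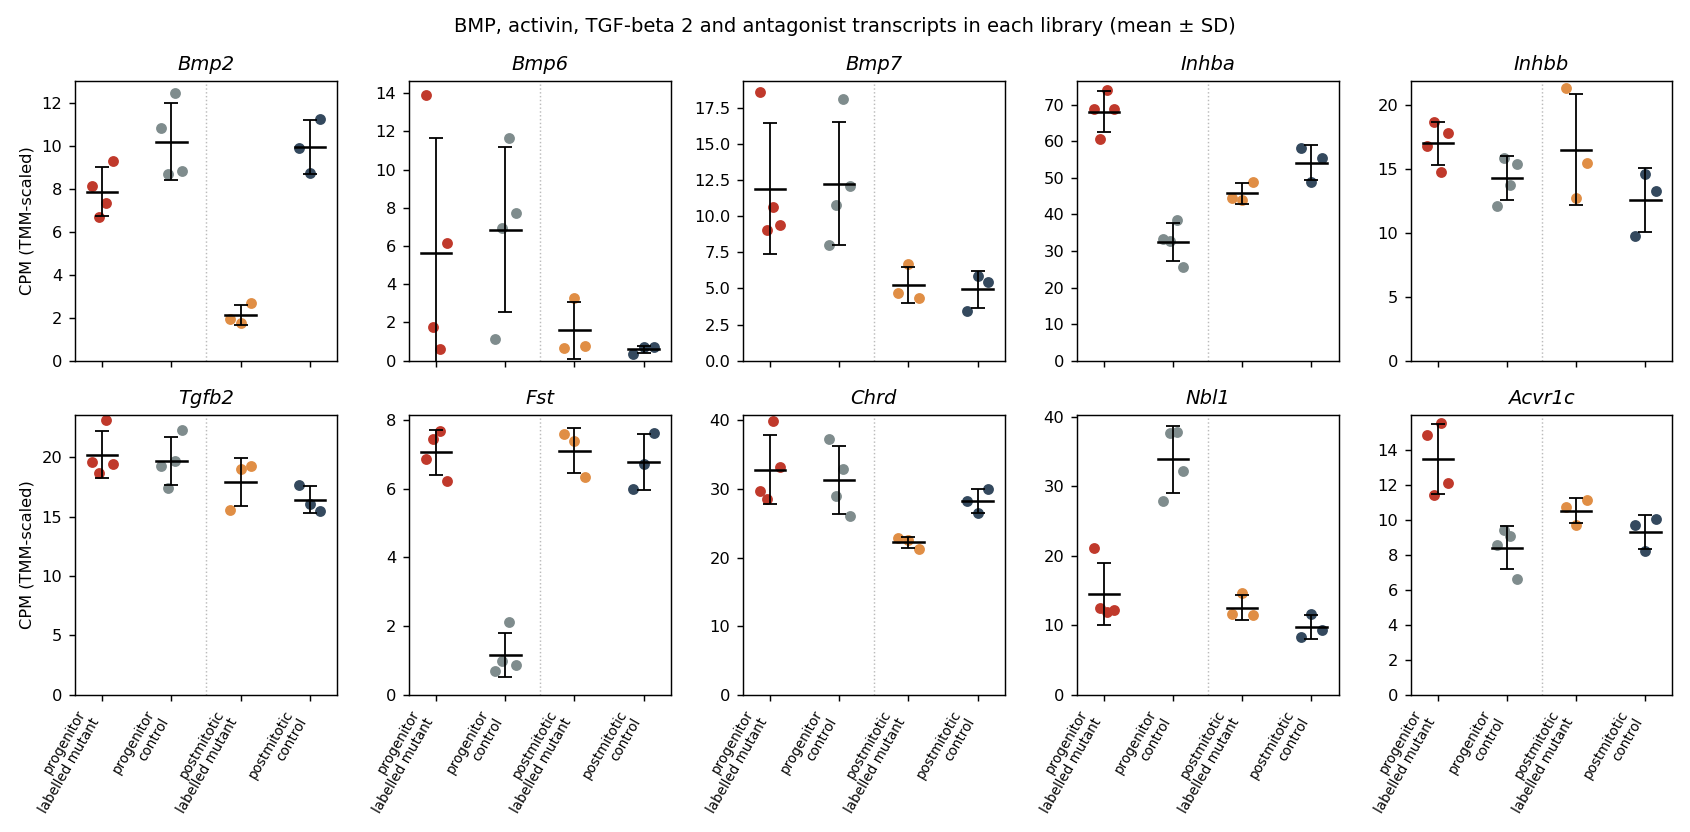
CPM (vertical axis, linear from 0, scaled to each gene) of the 10 genes in every library, in progenitor libraries labelled mutant and controls and in postmitotic libraries labelled mutant and controls; points are libraries, bars are the mean ± SD. In the progenitor experiment Inhba, Fst and Acvr1c lie above the controls and Nbl1 below them, and in the postmitotic experiment Bmp2 lies far below the controls.

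Inhba encodes the beta A subunit that forms activin A. It lies on the plus strand of chromosome 13 at chr13:16011851-16031621 (GRCm38, GENCODE M21). The RefSeq sequence from 250 bases before to 50 bases after its start (chr13:16011601-16011900, plus strand, GRCm38.p6) is shown because Inhba was, per length, the most abundant of the 10 genes in progenitor libraries labelled mutant and one of those that stood apart between labels in the progenitor experiment. Lhx2 is a LIM-homeodomain protein, a class known to bind TAAT-containing sites, and capitals mark TAATTN on either strand.

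Inhba promoter: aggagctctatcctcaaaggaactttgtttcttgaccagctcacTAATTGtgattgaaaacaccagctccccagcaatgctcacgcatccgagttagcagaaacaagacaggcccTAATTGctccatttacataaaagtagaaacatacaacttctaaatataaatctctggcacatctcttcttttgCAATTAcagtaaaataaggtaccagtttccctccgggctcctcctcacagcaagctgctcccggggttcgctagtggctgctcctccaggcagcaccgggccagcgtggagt

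The window holds 3 matches to TAATTN, at 206, 135 and 62 bases before the start, and no CANNTG, the E-box. At least 1 TAATTN stands in 27.0% of all 32851 promoter windows of this length, and CANNTG in 72.3%. These motifs were chosen after the sequences were seen, and a match is a description of letters, not of binding. None of the windows found for Bmp6, Inhbb, Tgfb2, Nbl1, Chrd and Acvr1c held TAATTN, whether or not the gene differed between labels. The GC content of those windows was 50.3% to 79.0%, against 47.7% for Inhba and a median of 52.7% over all windows. The part of base composition in the matches was not tested.

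Inhba CPM in the progenitor experiment were 68.9, 60.7, 74.1 and 68.8 in libraries labelled mutant, against 33.4, 32.7, 38.4 and 25.8 in controls. The lowest library labelled mutant was well above the highest control. Inhba had a log2 fold change of 1.07 ± 0.11 (SE). It ranged from 0.97 to 1.16 when each library was left out in turn and was 1.06 ± 0.17 with library 1 labelled mutant, the one without Y-linked transcripts, as the only library labelled mutant. Postmitotic Inhba CPM were 44.5, 43.8 and 48.9 in libraries labelled mutant, against 58.3, 48.8 and 55.3 in controls. There the groups touched, with the highest library labelled mutant level with the lowest control, and the log2 fold change was -0.24 ± 0.08. The progenitor minus postmitotic difference in log2 fold change of Inhba was 1.31 ± 0.15.

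Inhbb encodes the beta B subunit, which forms activin B and, with the beta A subunit, activin AB. Its CPM in the progenitor experiment were 16.8, 18.7, 14.8 and 17.8 in libraries labelled mutant and 12.1, 15.8, 13.7 and 15.4 in controls. The groups overlapped, since library 3 labelled mutant lay below controls 2 and 4, and the log2 fold change was 0.25 ± 0.10. Postmitotic Inhbb CPM were 21.3, 12.7 and 15.46 in libraries labelled mutant, against 9.76, 14.6 and 13.3 in controls. The log2 fold change was 0.39 ± 0.20, and 0.17 without library 1 labelled mutant, which was the highest. Per length, Inhba stood at 2.70 ± 0.487 times Inhbb in progenitor libraries labelled mutant and at 1.55 ± 0.365 times Inhbb in controls (SD, n = 4 each). The postmitotic ratio ran the other way, at 1.93 ± 0.475 in libraries labelled mutant and 2.99 ± 0.894 in controls (SD, n = 3 each), and those groups overlapped.

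Tgfb2, a TGF-beta ligand, hardly differed between labels. Its CPM were 19.6, 18.7, 23.2 and 19.5 in progenitor libraries labelled mutant, against 19.3, 17.4, 19.7 and 22.3 in controls, with a log2 fold change of 0.04 ± 0.09. Postmitotic Tgfb2 CPM were 15.6, 19.0 and 19.2 in libraries labelled mutant, against 17.7, 16.1 and 15.45 in controls, with a log2 fold change of 0.13 ± 0.11. Both pairs of groups overlapped.

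Bmp2 encodes a BMP that is known to promote neuronal differentiation. The gene lies on the plus strand at chr2:133552159-133562885 and overlaps no other annotated gene. Bmp2 CPM in the postmitotic experiment were 1.93, 1.77 and 2.67 in libraries labelled mutant, from 45 to 64 counts each, against 9.88, 8.72 and 11.2 in controls, from 221 to 249 counts each. Every library labelled mutant was far below the lowest control. Bmp2 had a log2 fold change of -2.23 ± 0.18, and it lay between -2.42 and -2.10 when each library was left out in turn. Progenitor Bmp2 CPM were 8.13, 6.68, 7.34 and 9.29 in libraries labelled mutant, against 10.8, 8.66, 12.5 and 8.80 in controls. These groups overlapped through library 4 labelled mutant, and the log2 fold change was -0.37 ± 0.14. The progenitor minus postmitotic difference in log2 fold change was 1.85 ± 0.24. In the authors' deposited table the log2 fold change of Bmp2 in the postmitotic experiment is -2.32, the value that the fit of libraries 1 and 2 of each group gave. The deposited postmitotic values of all 10 genes lie close to that fit. For Fst they are 0.25 deposited, 0.24 in that fit and 0.07 with all libraries, and for Bmp7 0.29, 0.28 and 0.09. Whether the authors left out library 3 of each group was not tested.

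Bmp6 and Bmp7 encode BMPs of a related subgroup that meningeal cells are known to express. Bmp6 varied more among libraries of a group than any other of the 10 genes. Its CPM were 13.9, 1.77, 0.622 and 6.18 in progenitor libraries labelled mutant, from 15 to 320 counts, against 1.14, 6.94, 11.6 and 7.74 in controls, from 28 to 308 counts. Both groups spanned high and low libraries, and the log2 fold change was -0.29 ± 0.99. A covariate for Y-linked CPM turned the direction, at 0.91 ± 1.23, as did the fit with library 1 as the only library labelled mutant. Leaving out library 1 labelled mutant gave -1.27, and leaving out library 3 labelled mutant gave 0.08. Postmitotic Bmp6 CPM were 0.684, 3.30 and 0.794 in libraries labelled mutant, against 0.357, 0.710 and 0.694 in controls. The log2 fold change of 1.45 ± 0.70 rested on library 2 labelled mutant and was 0.34 without it.

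Bmp7 CPM were 18.6, 9.01, 10.6 and 9.38 in progenitor libraries labelled mutant, against 7.98, 10.8, 18.1 and 12.1 in controls. One library in each group stood high, and the log2 fold change was -0.04 ± 0.31. A covariate for Y-linked CPM gave 0.60 ± 0.33, and it was 0.58 ± 0.38 with library 1 as the only library labelled mutant. Postmitotic Bmp7 CPM were 4.67, 6.69 and 4.35 in libraries labelled mutant, against 3.45, 5.88 and 5.46 in controls, with a log2 fold change of 0.09 ± 0.22.

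The libraries with high Bmp6 and Bmp7 were those with high markers of meningeal and perivascular fibroblasts, a list of 12 genes that includes Col1a1, Col3a1, Lum and Dcn. The 12 markers summed to 735, 103, 86.9 and 285 CPM in progenitor libraries labelled mutant, against 49.4, 311, 627 and 270 CPM in controls, and to 23.4, 119 and 19.3 CPM in postmitotic libraries labelled mutant, against 16.9, 34.8 and 20.8 CPM in controls. The sums thus spread widely within the progenitor experiment, with high and low libraries under both labels, and no marker was at 0 in every library. Of the 12 tested in the progenitor experiment 0 were called by edgeR, DESeq2 and limma-voom, and 0 at an unadjusted p under 0.05. Of the 9 tested in the postmitotic experiment 0 were called by edgeR and limma-voom, with 1 at an unadjusted p under 0.05, and 0 of the 5 that DESeq2 tested.

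On the log2 scale, Bmp6 followed the summed fibroblast markers over the 8 progenitor libraries with a Pearson's r of 0.939 (exact permutation p = 0.00164, two-sided; adjusted p = 0.0229 over the 14 relations computed) and a Spearman's rho of 0.905 (exact permutation p = 0.00456; adjusted p = 0.0639). Without the 2 libraries farthest from the median marker sum, r was 0.968. For Bmp7 over the same 8 libraries r was 0.855 (exact permutation p = 0.00521; adjusted p = 0.0365), rho was 0.833 (exact permutation p = 0.0154; adjusted p = 0.0778), and r without the 2 farthest libraries was 0.888. Over the 6 postmitotic libraries, r was 0.933 for Bmp6 (exact permutation p = 0.0472; adjusted p = 0.132) with a rho of 0.600 (exact permutation p = 0.242; adjusted p = 0.564). It was 0.794 for Bmp7 (exact permutation p = 0.00833; adjusted p = 0.0389) with a rho of 0.943 (exact permutation p = 0.0167; adjusted p = 0.0778). Leaving out the 2 farthest postmitotic libraries gave an r of 0.709 for Bmp6 and 0.751 for Bmp7 over 4 libraries. Nbl1 in the postmitotic experiment had an r of 0.826 (exact permutation p = 0.0222; adjusted p = 0.0778) and a rho of 0.886 (exact permutation p = 0.0333; adjusted p = 0.0933), with an r of 0.717 without the 2 farthest libraries. Inhba in the postmitotic experiment ran the other way, with an r of -0.654 (exact permutation p = 0.0861; adjusted p = 0.201) and a rho of -0.886 (exact permutation p = 0.0333; adjusted p = 0.0933). The remaining 8 relations had adjusted p of 0.430 or more by either measure. The relations were examined after the values of both genes had been seen. They were computed for only 1 of the 12 marker lists, and the adjustment does not cover that choice.

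With the marker sum as a covariate, the SE of the Bmp6 log2 fold change fell to 0.25 in the progenitor experiment, against 0.99 without it, and the value was -0.40. For Bmp7 the same covariate gave 0.00 ± 0.15 in the progenitor experiment. The postmitotic Bmp6 value was 0.51 ± 0.34 with the covariate. The covariate left Inhba at 1.07 ± 0.11, Fst at 2.64 ± 0.27, Nbl1 at -1.22 ± 0.11 and Acvr1c at 0.69 ± 0.14 in the progenitor experiment, and Bmp2 at -2.11 ± 0.18 in the postmitotic experiment.

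**Figure D2:**
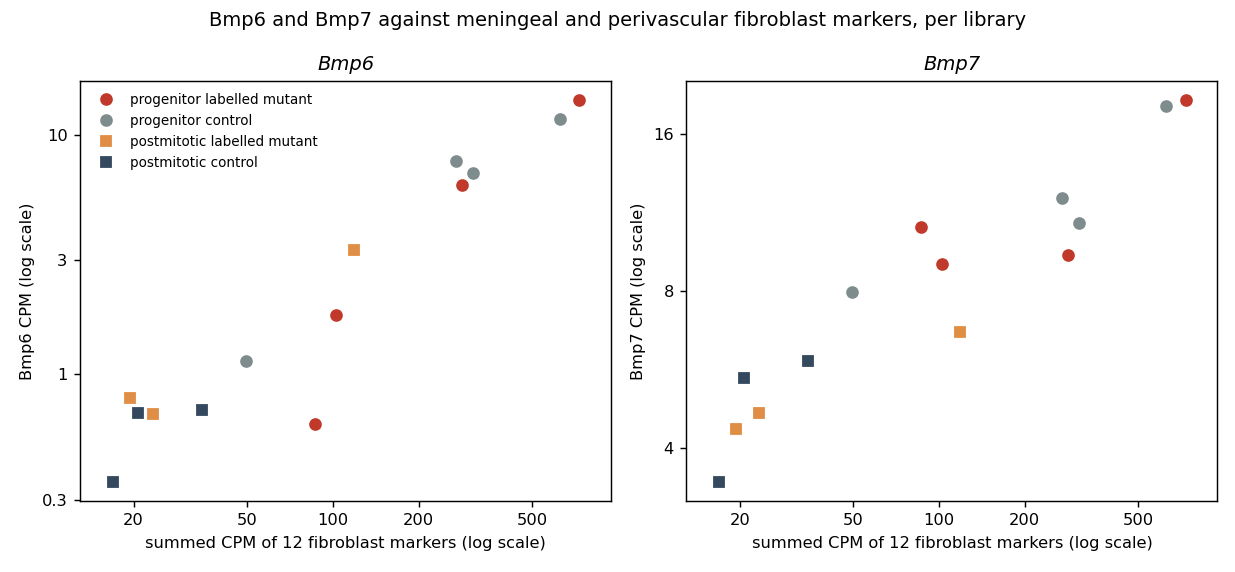
CPM of Bmp6 (left) and Bmp7 (right) against the summed CPM of 12 fibroblast markers, both axes logarithmic, with 1 point per library; circles are progenitor and squares postmitotic libraries. Libraries labelled mutant and controls lie mixed along 1 rising band for Bmp6, from 0.357 CPM to 13.9 CPM.

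Fst encodes follistatin, the secreted protein that holds activins. The gene lies on the minus strand at chr13:114452290-114458951. Fst CPM in the progenitor experiment were 6.87, 7.46, 7.68 and 6.22 in libraries labelled mutant, from 144 to 185 counts each, against 0.692, 0.992, 2.11 and 0.860 in controls, from 17 to 56 counts each. The groups were far apart, the highest control, library 3, lying well below the lowest library labelled mutant. Fst had a log2 fold change of 2.59 ± 0.28, the largest of the 10 genes in either experiment. It was 3.05 without control 3 and between 2.42 and 3.05 over all libraries left out in turn.

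Postmitotic Fst CPM were 7.60, 7.39 and 6.35 in libraries labelled mutant, against 5.99, 6.71 and 7.63 in controls. These groups overlapped fully, and the log2 fold change was 0.07 ± 0.14. The progenitor controls were therefore the group that stood apart, at 1.17 ± 0.645 CPM (SD, n = 4), against 6.78 ± 0.823 CPM in postmitotic controls (SD, n = 3). The 2 control groups have the same genotype and plasmid in the labels but come from separately counted tables, so this difference between experiments cannot be told apart from a difference in processing or dissection. Per length, Fst was the lowest of the 10 genes in progenitor controls, at 0.254 ± 0.141 CPM per kilobase of exon, and the eighth in progenitor libraries labelled mutant, at 1.54 ± 0.142. The progenitor minus postmitotic difference in log2 fold change of Fst was 2.52 ± 0.33.

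Inhba and its antagonist Fst were thus both higher in progenitor libraries labelled mutant, by unequal amounts. The ratio of Inhba to Fst, each per kilobase of exon, was 7.20, 5.84, 6.93 and 7.94 in progenitor libraries labelled mutant, against 34.6, 23.6, 13.1 and 21.5 in controls. The means were 6.98 ± 0.866 and 23.2 ± 8.89 (SD, n = 4 each), and the groups did not overlap. The postmitotic ratio was 4.20, 4.26 and 5.53 in libraries labelled mutant, against 6.98, 5.23 and 5.21 in controls, and the groups overlapped. The ratio is built from the values that chose the genes and is given without a test.

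**Figure D3:**
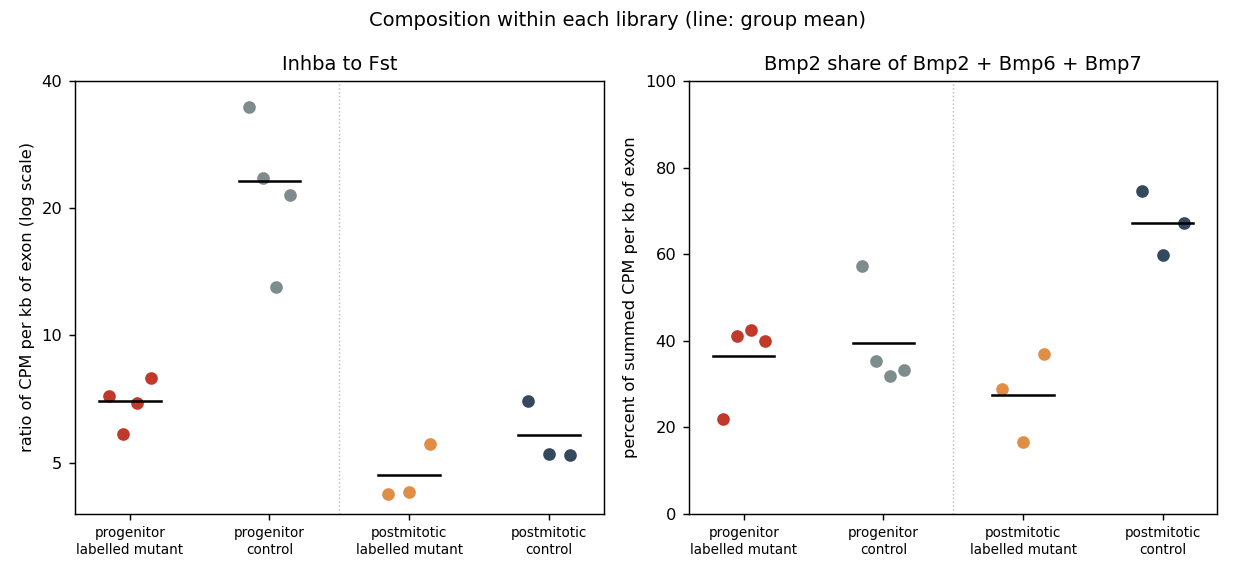
Ratio of Inhba to Fst (left, log axis) and Bmp2 as a percent of Bmp2, Bmp6 and Bmp7 together (right, axis from 0 to 100), each from CPM per kilobase of exon, in progenitor libraries labelled mutant and controls and in postmitotic libraries labelled mutant and controls; points are libraries and lines are group means. The Inhba to Fst ratio averages 6.98 in progenitor libraries labelled mutant and 23.2 in controls, and the Bmp2 share averages 27.5% in postmitotic libraries labelled mutant and 67.2% in controls.

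Nbl1 encodes a secreted BMP antagonist of the DAN family. It lies on the minus strand at chr4:139082284-139092993 and overlaps no other annotated gene. The RefSeq window around its start (chr4:139092921-139093220, minus strand, GRCm38.p6) is shown as that of the gene that was lower where Inhba was higher. It holds neither TAATTN nor CANNTG, so no letter is in capitals.

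Nbl1 promoter: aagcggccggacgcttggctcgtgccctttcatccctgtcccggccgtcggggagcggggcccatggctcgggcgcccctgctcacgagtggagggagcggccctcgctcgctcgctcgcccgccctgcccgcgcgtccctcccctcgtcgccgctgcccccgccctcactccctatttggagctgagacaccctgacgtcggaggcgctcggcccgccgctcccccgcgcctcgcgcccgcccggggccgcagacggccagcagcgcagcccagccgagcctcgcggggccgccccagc

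Nbl1 CPM in the progenitor experiment were 21.2, 12.5, 11.9 and 12.2 in libraries labelled mutant, against 27.8, 37.7, 37.8 and 32.2 in controls. All libraries labelled mutant were below all controls, and library 1 labelled mutant stood above the other 3 of its group. The log2 fold change was -1.23 ± 0.20. With library 1, the only one labelled mutant that lacked Y-linked transcripts like the controls, set alone against the 4 controls it was -0.70 ± 0.18, and Y-linked CPM as a covariate gave -0.69 ± 0.16. The part of sex in this difference was not tested. Postmitotic Nbl1 CPM were 11.6, 14.6 and 11.5 in libraries labelled mutant, against 8.29, 11.6 and 9.35 in controls, with a log2 fold change of 0.37 ± 0.15. Those groups overlapped, and the progenitor minus postmitotic difference in log2 fold change was -1.60 ± 0.28.

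Chrd encodes chordin, a BMP antagonist that tolloid proteases cleave. Postmitotic Chrd CPM were 22.8, 22.6 and 21.2 in libraries labelled mutant, against 28.2, 26.6 and 30.0 in controls. The groups did not overlap, and the log2 fold change was -0.35 ± 0.09, or -0.27 ± 0.12 with libraries 1 and 2 of each group alone. Progenitor Chrd CPM were 29.7, 28.6, 39.8 and 33.2 in libraries labelled mutant, against 37.3, 29.0, 32.9 and 26.0 in controls. There the values were intermixed, with a log2 fold change of 0.07 ± 0.13.

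Acvr1c encodes a type I receptor for activin B, activin AB and nodal. It lies on the minus strand at chr2:58267453-58357895, and RefSeq gives it 2 starts. The windows are shown because Acvr1c was higher beside Inhba in the progenitor experiment, and capitals mark CANNTG. The upstream start is at chr2:58357709-58358008 and the internal one at chr2:58324758-58325057, both on the minus strand of GRCm38.p6.

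Acvr1c upstream promoter: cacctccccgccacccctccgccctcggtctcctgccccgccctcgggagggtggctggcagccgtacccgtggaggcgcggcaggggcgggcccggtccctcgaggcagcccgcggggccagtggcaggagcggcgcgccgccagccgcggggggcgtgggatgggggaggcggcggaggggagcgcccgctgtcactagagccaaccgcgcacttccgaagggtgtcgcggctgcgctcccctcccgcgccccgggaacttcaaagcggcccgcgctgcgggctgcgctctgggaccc

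Acvr1c internal promoter: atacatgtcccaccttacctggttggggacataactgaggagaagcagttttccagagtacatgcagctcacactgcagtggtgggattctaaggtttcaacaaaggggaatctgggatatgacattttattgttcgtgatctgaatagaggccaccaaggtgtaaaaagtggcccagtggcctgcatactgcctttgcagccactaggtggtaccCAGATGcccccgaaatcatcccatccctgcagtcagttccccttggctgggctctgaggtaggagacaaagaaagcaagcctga

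The upstream window holds no CANNTG. The internal one holds 1, CAGATG, at 34 bases before the start, the E-box form known for proneural basic helix-loop-helix proteins and present in 17.2% of all windows. Neither window holds TAATTN.

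Acvr1c CPM in the progenitor experiment were 14.8, 11.4, 15.52 and 12.1 in libraries labelled mutant, against 8.55, 9.38, 9.06 and 6.60 in controls. The groups did not overlap, and the log2 fold change was 0.68 ± 0.13. It was 0.80 ± 0.20 with library 1 as the only library labelled mutant. Postmitotic Acvr1c CPM were 10.7, 9.71 and 11.1 in libraries labelled mutant, against 9.68, 8.21 and 10.04 in controls. Those groups overlapped, with a log2 fold change of 0.18 ± 0.13 and a progenitor minus postmitotic difference of 0.51 ± 0.19.

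**Figure D4:**
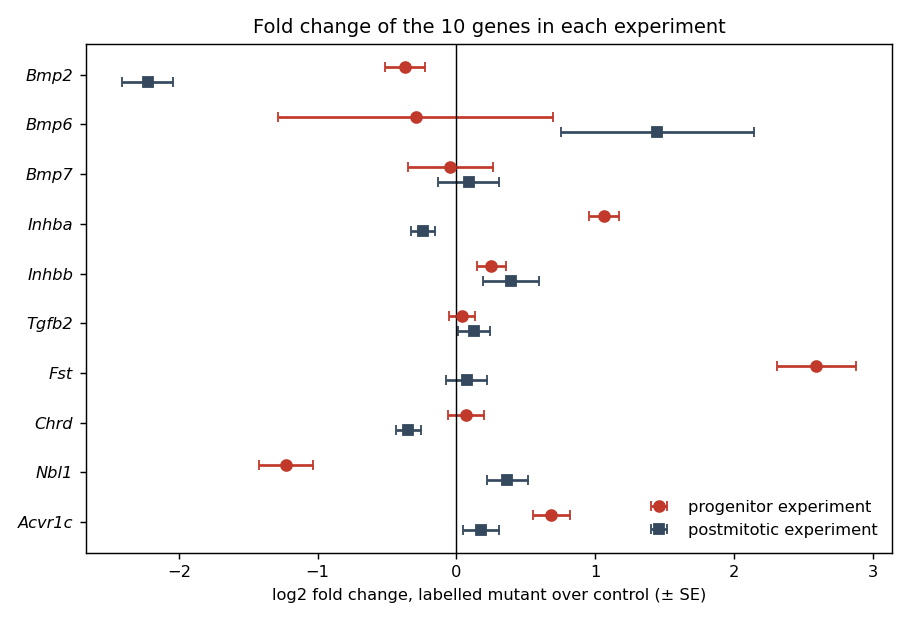
Log2 fold change of libraries labelled mutant over controls (horizontal axis) for the 10 genes, with circles for the progenitor and squares for the postmitotic experiment; bars are ± 1 SE of the edgeR fit. Fst lies at 2.59 and Inhba at 1.07 in the progenitor experiment, Bmp2 at -2.23 in the postmitotic experiment, and Bmp6 has the widest bars.

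Per kilobase of exon, the order of the 10 genes in progenitor libraries labelled mutant ran from Inhba at 10.7 ± 0.864 CPM over Nbl1 at 7.12 ± 2.21 and Chrd at 5.25 ± 0.809 to Bmp6 at 1.44 ± 1.55 (SD, n = 4). Nbl1 and Chrd overlapped in their ranges there, as did Inhba and Nbl1 through library 1. In progenitor controls Nbl1 was first at 16.7 ± 2.37 CPM per kilobase, apart from Inhba at 5.10 ± 0.816 and Chrd at 5.00 ± 0.782, which overlapped. In postmitotic libraries labelled mutant the order ran from Inhba at 7.16 ± 0.430 over Nbl1 at 6.18 ± 0.884 to Bmp2 at 0.598 ± 0.136 and Bmp6 at 0.409 ± 0.380. In postmitotic controls it ran from Inhba at 8.47 ± 0.755 over Nbl1 at 4.79 ± 0.821 to Bmp6 at 0.151 ± 0.0511 (SD, n = 3 each). Inhba and Nbl1 overlapped in the libraries labelled mutant and were apart in the controls. Bmp2 was sixth in postmitotic controls, at 2.80 ± 0.355 CPM per kilobase. Of the summed CPM per kilobase of Bmp2, Bmp6 and Bmp7, Bmp2 made up 28.9%, 16.6% and 36.9% in postmitotic libraries labelled mutant, against 74.5%, 59.9% and 67.3% in controls. Progenitor shares of Bmp2 were 21.8%, 41.1%, 42.4% and 40.02% in libraries labelled mutant, against 57.2%, 35.3%, 31.9% and 33.2% in controls, and these groups overlapped.

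GENCODE places a gene on the opposite strand over 6 of the 10, among them the antisense gene Gm47040 over Fst and B230303A05Rik over Inhba. The kit keeps strand, per the labels' protocols, but no source used here gives the strand setting of the counting. Without it, reads of a gene and its partner on the other strand cannot be told apart. The same holds for Lhx2 above, over which lie Gm13584 and Gm27197. Of the pathway genes named below, it holds for Kcp, Acvr1, Acvr2a, Acvr2b, Bmpr1a, Tgfbr3, Tll1, Id4 and Ccn2.

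A list of 103 other genes of the pathway, ordered by role and drawn up with earlier results of these data known, was read from the same fits. It leaves out the 10 genes above, so genes that differed had been taken from it. In the progenitor experiment 84 were tested, of which 8 rose and 6 fell in libraries labelled mutant, or 16.7% of the tested genes of the list, beside 23.4% of all tested genes. With Y-linked CPM as a covariate 4 rose and 2 fell, and without the libraries that had Y-linked transcripts 2 rose and 1 fell. The last fit holds library 1 as the only one labelled mutant and assumes that it varies like the controls. The covariate fit also rests largely on that library. The list had a median log2 fold change of -0.04. In the postmitotic experiment 80 were tested, and edgeR's quasi-likelihood test called 0 of them, beside 1.96% of all tested genes. There 10 had an unadjusted p under 0.05, 5 in each direction, or 12.5% of the list beside 11.4% of all tested genes. DESeq2 called 1 higher (Ccn2) and 1 lower (Id3), and limma-voom called 0.

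Among the 15 tested antagonists and binding proteins in the progenitor experiment, 1 rose and 3 fell, or 26.7%, beside 23.4% of all tested genes. Kcp, a chordin-like protein known in mice to enhance BMP and to inhibit activin and TGF-beta signalling, stood at 55.2, 53.3, 54.2 and 43.5 CPM in libraries labelled mutant, against 26.0, 24.7, 29.7 and 21.5 CPM in controls. Kcp rose with a log2 fold change of 1.02 ± 0.10 and an adjusted p of 0.000144 in edgeR's quasi-likelihood test. Sostdc1, an antagonist of BMP and Wnt ligands, fell to 2.84 ± 0.245 CPM in libraries labelled mutant, against 5.01 ± 0.719 CPM in controls (SD, n = 4 each), with an adjusted p of 0.00301 in the same edgeR test. Vwc2l, which encodes a secreted protein with von Willebrand factor C domains, fell to 14.7 ± 2.39 CPM in libraries labelled mutant, against 19.3 ± 2.40 CPM in controls (SD, n = 4 each), and its log2 fold change was -0.39 ± 0.12 (adjusted p = 0.0424 in the same edgeR test). Nog, which encodes the BMP antagonist noggin and is named after its value was seen, fell with a log2 fold change of -0.36 ± 0.12. Groups of CPM did not overlap for Kcp, Sostdc1 and Nog, and overlapped for Vwc2l. Of the 15, called or not, the groups stood apart for 2 higher and 4 lower genes, beside 13.7% and 13.3% of all tested genes.

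Of the 6 type I receptors beside Acvr1c, 2 rose and 1 fell in the progenitor experiment, beside the same 23.4% of all tested genes. Tgfbr1, the type I receptor of TGF-beta, stood at 72.5, 76.3, 70.9 and 75.3 CPM in libraries labelled mutant, against 45.4, 52.6, 49.8 and 47.0 CPM in controls. Its log2 fold change was 0.60 ± 0.06, with an adjusted p of 7.77e-05 in edgeR's quasi-likelihood test. Acvr1, a type I receptor for BMPs, stood at 62.5, 56.3, 64.4 and 55.4 CPM in libraries labelled mutant, against 46.0, 46.0, 48.7 and 44.6 CPM in controls, and rose with a log2 fold change of 0.37 ± 0.06 and an adjusted p of 0.00203 in the same edgeR test. Acvr1b, the type I receptor of activin, had a log2 fold change of -0.22 ± 0.07 and an adjusted p of 0.0446 in the same edgeR test, and the groups overlapped. The BMP receptors Bmpr1a and Bmpr1b were at 0.17 ± 0.07 and 0.13 ± 0.07 and did not pass. Of the 5 type II receptors, which pair with these, 0 were called by edgeR, DESeq2 and limma-voom, with 0 at an unadjusted p under 0.05. Their log2 fold changes include -0.11 ± 0.08 for Acvr2a, 0.16 ± 0.09 for Acvr2b, -0.04 ± 0.07 for Bmpr2 and 0.23 ± 0.24 for Tgfbr2, and the co-receptor Tgfbr3 was at -0.26 ± 0.47.

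Among the remaining ligands, proteases and Smads of the progenitor experiment, Bmp3, a ligand known to oppose other BMPs, fell to 6.35 ± 1.35 CPM in libraries labelled mutant, against 11.1 ± 2.89 CPM in controls (SD, n = 4 each). Its log2 fold change was -0.80 ± 0.20, with an adjusted p of 0.0184 in edgeR's quasi-likelihood test. Inha, the inhibin alpha subunit that competes with activin, rose by 0.21 ± 0.07 and the tolloid-like protease gene Tll1 by 0.42 ± 0.14 on the log2 scale. Smad5, which BMP receptors activate, rose by 0.38 ± 0.09, and the Smad corepressor genes Tgif1 and Ski rose by 0.89 ± 0.25 and 0.14 ± 0.05. Leaving out 1 library ended the call of Inha, Tll1, Bmp3, Vwc2l, Tgif1, Ski or Acvr1b in at least 1 case, with adjusted p up to 0.138 in the edgeR test, and Nog passed in 2 of the 8 such fits. With Y-linked CPM as a covariate the calls of Inha, Tll1, Bmp3, Nog, Smad5, Tgif1, Ski, Acvr1b and Hey1 ended. That fit rests largely on library 1 labelled mutant, the only one of its group that lacked Y-linked transcripts like the controls. An ended call there cannot be told apart from the loss of libraries that inform the fit. The part of sex was not tested. Kcp, Tgfbr1, Acvr1, Sostdc1, Smad5 and Hey1 passed with every library left out in turn. The adjusted p reached 0.0475 for Smad5 and 0.0454 for Hey1 in edgeR's test.

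Of 8 BMP targets tested in the progenitor experiment, 1 passed, beside 23.4% of all tested genes. It was Hey1, which is also a Notch target, with a log2 fold change of -0.25 ± 0.06 and an adjusted p of 0.0136 in edgeR's quasi-likelihood test. The Id genes, which BMP signals are known to induce, had log2 fold changes of 0.18 ± 0.12 for Id1, 0.00 ± 0.07 for Id2, 0.26 ± 0.13 for Id3 and 0.16 ± 0.08 for Id4. The inhibitory Smads, which are also targets, were at 0.15 ± 0.27 for Smad6 and 0.03 ± 0.09 for Smad7. None of these 6 passed, although Id3 did without control 3 and with the replicate number as a block. In the postmitotic experiment Id3 stood at 19.5, 21.8 and 24.5 CPM in libraries labelled mutant, against 23.7, 32.5 and 33.9 CPM in controls. Those groups overlapped. The log2 fold change of Id3 was -0.45 ± 0.13, with an adjusted p of 0.151 in edgeR's quasi-likelihood test. Id1, Id2 and Id4 were there at -0.29 ± 0.15, 0.14 ± 0.15 and -0.18 ± 0.11.

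**Figure D5:**
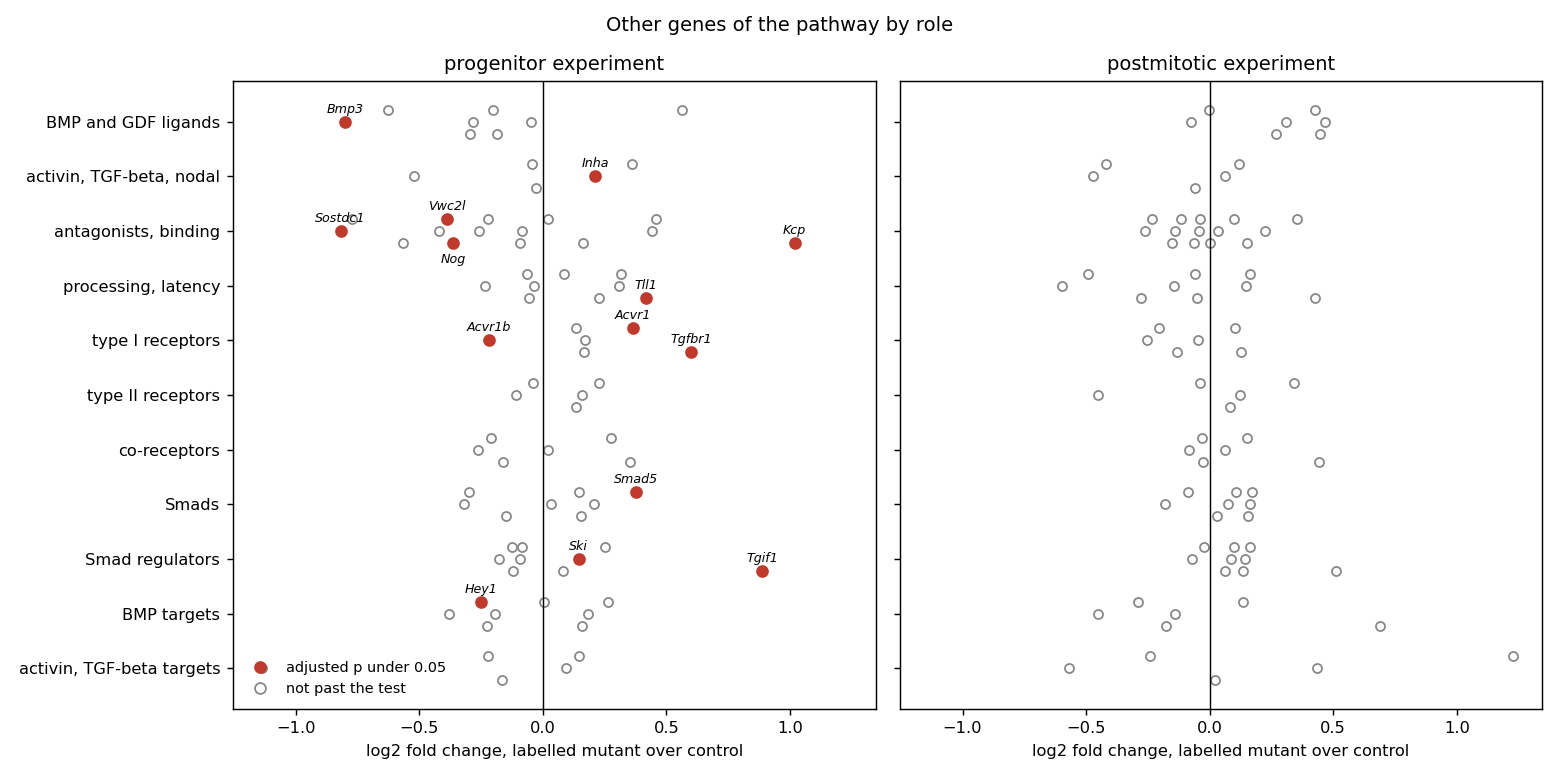
Log2 fold change of libraries labelled mutant over controls (horizontal axis) of the other pathway genes by role (vertical axis), in the progenitor (left) and the postmitotic (right) experiment; each point is 1 gene, and filled points passed an adjusted p under 0.05 in edgeR's test. The progenitor panel has 14 filled points, from Sostdc1 at -0.82 to Kcp at 1.02, and the postmitotic panel has 0.

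The difference between the 2 experiments was tested for the other pathway genes in 1 model that held all 14 libraries and the 24690 symbols of both tables. Of 88 tested, 3 had a progenitor change above the postmitotic one and 4 a change below it, beside 3.84% and 3.10% of all 15643 tested genes. The 3 were Kcp, with a progenitor minus postmitotic difference of 1.28 ± 0.16 (adjusted p = 0.000328), Tgfbr1, with 0.73 ± 0.10 (adjusted p = 0.000594), and Acvr1, with 0.62 ± 0.09 (adjusted p = 0.000718), by the quasi-likelihood test of edgeR with Benjamini-Hochberg adjustment. Below were Bmp3, with -1.11 ± 0.28 (adjusted p = 0.0255), and Ccn2, a target of TGF-beta, with -2.37 ± 0.58 (adjusted p = 0.0305), in the same edgeR test. Ccn2 had a log2 fold change of -1.14 in the progenitor experiment and 1.23 in the postmitotic one. Neither passed by edgeR, and both did by DESeq2. Of the 5 subplate genes, all but Nr4a2 likewise had a negative log2 fold change in the progenitor and a positive one in the postmitotic experiment. Cplx3 was at -1.80 and 1.15, with a difference of -2.95 (adjusted p = 0.0210 in the same edgeR test). Nr4a2 was at -2.07 and -1.61. The part of subplate cells in the Ccn2 values was not tested. The other 2 pathway genes with a lower change were Acvr1b (-0.34 ± 0.10) and Gdf10 (-0.65 ± 0.19). Their adjusted p were 0.0459 and 0.0467 in the same edgeR test, and Gdf10 is named after its value was seen. No Id gene passed that test. The difference was 0.72 ± 0.21 for Id3 (adjusted p = 0.0591), 0.47 ± 0.20 for Id1, 0.34 ± 0.13 for Id4 and -0.13 ± 0.16 for Id2. Id3 did pass with DESeq2, with the replicate number as a block, without progenitor control 3 and without postmitotic control 1. Kcp stood at 23.8, 25.9 and 21.3 CPM in postmitotic libraries labelled mutant, against 29.9, 30.7 and 24.3 CPM in controls. Tgfbr1 stood there at 66.5, 58.2 and 57.8 CPM, against 60.5, 66.8 and 72.9 CPM in controls, so both were level with or below their controls. Acvr1 stood there at 48.1, 47.0 and 46.4 CPM, against 54.2, 56.0 and 58.5 CPM in controls. Those groups did not overlap, as for 8.44% of all tested genes in that direction. The postmitotic log2 fold change of Acvr1 was -0.25 and did not pass in edgeR's test. The call of Kcp, Tgfbr1 and Acvr1 held with every library left out in turn, and those of Bmp3, Ccn2, Acvr1b and Gdf10 did not. Y-linked transcripts moved with the label in the progenitor experiment, and no fit of the difference took them into account. The part of sex in these differences was not tested.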

How the data were processed

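The authors deposited a table of counts per gene symbol for each experiment (8 and 6 libraries) and, per the file headers, log2 fold changes in a DESeq2 table of their own. The tools were HISAT2, featureCounts and DESeq2, with build mm10, per the submitters' processing notes; their versions, the annotation and how strand was handled in counting are not given in those sources. The files held 0 columns of other samples. No pair of replicates was a duplicate by a chi-square test of their counts (6.31 to 19.6 per degree of freedom).

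Each whole table was tested alone in R 4.3.3 with edgeR 4.0.16 (filterByExpr with a minimum count of 10, TMM, robust glmQLFit, glmQLFTest) and Benjamini-Hochberg adjustment over all tested genes; the threshold was an adjusted p of 0.05. SE were computed as the log2 fold change over the square root of F, and the common biological coefficient of variation was 0.110 and 0.112. CPM are TMM-scaled. The experiments were compared by the interaction term of experiment and label over all 14 libraries and the symbols shared by both tables. Relations to marker sums used exact permutation tests of log2 values, left out genes whose groups stood apart, and were adjusted over 14 relations. DESeq2 1.42.0, limma-voom 3.58.1 and the other alternatives appear in the closing section. The procedure was tested on simulated data.

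The 10 genes, the 103 other pathway genes, the 12 marker lists and the activity-regulated list were chosen with earlier results of these data known; 1 further gene of the pathway is not reported here. Of the pathway genes, the text names up to 3 called genes per role with the smallest p, a fixed set of receptors, Id genes and inhibitory Smads, and up to 5 genes for the difference between experiments; of each marker list it names up to 2 called genes. The fibroblast covariate, the relations and the motifs were added after seeing the data. In the progenitor experiment edgeR called 0 endothelial, choroid plexus and deep-layer genes (3, 0 and 1 at an unadjusted p under 0.05); DESeq2 called 1 endothelial gene higher and 1 deep-layer gene lower, and limma-voom 1 endothelial gene higher. Among postmitotic libraries edgeR called 0 genes of the 10 lists not named there; at an unadjusted p under 0.05 these included 6 astrocyte and 2 endothelial genes, DESeq2 called 4 genes in 3 of the lists (astrocyte, radial glia and subplate), and limma-voom called 1 subplate gene. Positions and exon lengths are those of GENCODE M21 (GRCm38), matched by symbol. Promoters are those of RefSeq on GRCm38.p6, which held 7 of the 10 genes; Fst, Bmp2 and Bmp7 were not among them.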

Additional observations from a re-analysis of the deposited data

Results flagged for a closer look

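In 3 of the 76 groups of 4 libraries that were screened, 1 library lay far from the other 3 by Dixon's criterion, and chance flags about 1 group in 20. Bmp7 was 18.6 CPM in progenitor library 1 labelled mutant, where the nearest library of the group had 10.6 CPM. Nbl1 was 21.2 CPM in the same library, where the nearest had 12.5 CPM. That library also had the highest fibroblast marker sum of the 8, 735 CPM, and was the only one labelled mutant without Y-linked transcripts. Kcp was 43.5 CPM in progenitor library 4 labelled mutant, below the nearest library at 53.3 CPM and still above every control.

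For 7 of the pathway genes named, the log2 fold change differed between the experiments by the interaction test of edgeR. The progenitor minus postmitotic difference was 1.28 for Kcp, 0.73 for Tgfbr1 and 0.62 for Acvr1. It was -1.11 for Bmp3, -2.37 for Ccn2, -0.34 for Acvr1b and -0.65 for Gdf10.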

How the results depend on the processing

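Members kept their direction where they were far from 0. Y-linked CPM as a covariate, or the libraries with Y-linked CPM over 1 left out, gave -0.69 and -0.70 for Nbl1 and 0.60 and 0.58 for Bmp7. Libraries 1 and 2 of each postmitotic group alone gave 0.24 for Fst and -0.27 for Chrd. Bmp6 in the postmitotic experiment was 0.34 without library 2 labelled mutant and 0.51 with the fibroblast covariate. Fst differed between the experiments by 2.97 without progenitor control 3.

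The progenitor count of 3577 called genes was 948 with the Y-linked covariate, 1567 at an adjusted p under 0.01, 393 without the libraries with Y-linked CPM, and 2383 (without library 3 labelled mutant) to 3712 with 1 library left out. The pathway genes called higher (8) were 4, 3 and 2 under these settings and 4 to 12 with 1 library left out. Those called lower (6) were 2, 1 and 1, 10 with DESeq2, 11 with the fibroblast covariate, and 2 (without library 1 or 3 labelled mutant) to 7 with 1 library left out. Kcp and Tgfbr1 were called in every setting. Acvr1 and Sostdc1 did not pass in the fit without the libraries with Y-linked CPM, which leaves 1 library labelled mutant, and their log2 fold changes there were 0.41 and -1.01.

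The postmitotic count of 348 was 527 with DESeq2, 723 without a filter, 146 at an adjusted p under 0.01 and 160 (without control 2) to 467 with 1 library left out, 197 without control 3. Of the pathway, 1 gene higher and 1 lower passed with DESeq2 and with no filter, 1 higher (Ccn2) with libraries 1 and 2 of each group alone, and 0 to 1 in each direction with 1 library left out. The count of 1086 for the difference was 1650 with DESeq2 and 598 (without postmitotic control 1) to 1481 with 1 library left out. The pathway genes with a higher change (3) were 6 with DESeq2 and 3 to 6 with 1 library left out, and those with a lower change (4) were 0 to 4, with 0 in edgeR without progenitor library 3 labelled mutant or without postmitotic library 1 labelled mutant.

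Replicate numbers did not pair the libraries (correlation of same-numbered deviations -0.44 to 0.09). With the replicate number as a block, 3073 genes were called in the progenitor experiment, 246 in the postmitotic one and 659 for the difference, where 2 pathway genes had a lower change; Id3 then passed in the progenitor experiment. The cause of these shifts was not tested. Depth limits Bmp6, with 9 to 84 counts in postmitotic libraries, and Fst, with 17 to 56 counts in progenitor controls.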
